A study of Bos taurus and Felis catus with 14 samples.

Results

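The mir-15, mir-16, mir-195 and mir-497 family was followed through the microRNA precursors that the miRWoods program predicted in cow and cat. Its members are the precursors whose name carries 1 of these 4 family numbers, whatever letter, copy number or other suffix follows, with names marked as antisense left out. The rule found 14 loci of the 1305 in both sets, 6 of 810 bovine and 8 of 495 feline. The bovine set rests on 10 small RNA libraries, 1 for each of 10 tissues (brain stem, optic nerve, retina, iris, submandibular lymph node, bone marrow, dental pulp, oral papillae, corium of the feet and penis) of 3 Angus steers, and 8 of the libraries came from 1 steer. The feline set rests on 2 skin and 2 muscle libraries of 3 neutered male domestic short hair cats. No treatment separated the animals, and all libraries of a species were called together. Each species therefore has 1 call set with no replicate, the deposited sets assign no locus to a tissue, and every value below is a description without a test.

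Precursors of this family fold into hairpins, from which Drosha and Dicer cut a mature product on the 5p arm and another on the 3p arm. The 5p product is the usual guide strand. It pairs with messenger RNAs through its seed, the bases from position 2 to position 8, and the family is known for restraining cyclins and the survival factor BCL2. In mammals the genes come as paired hairpins that are transcribed together, mir-15a with a mir-16 copy, mir-15b with another mir-16 copy, and mir-497 with mir-195.

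These 4 names share a seed, so the mature 5p sequences are shown first. They are the human sequences listed in the study's supplementary material, since the bovine and feline letters were not analysed here. Capitals mark the seed.
hsa-mir-15a 5p: tAGCAGCAcataatggtttgtg
hsa-mir-15b 5p: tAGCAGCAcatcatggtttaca
hsa-mir-16-1 and hsa-mir-16-2 5p: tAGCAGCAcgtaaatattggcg
hsa-mir-195 5p: tAGCAGCAcagaaatattggca
hsa-mir-497 5p: cAGCAGCAcactgtggtttgta
All 6 human hairpins carried the seed AGCAGCA, and both mir-16 hairpins gave the same 22 nt product, which left 5 distinct sequences. Only 10 of the 22 positions held the same base in all 6. Counted from 1 at the 5′ end, miR-195 differed from miR-16 at 3 positions (G10A, T11G and G22A, with the miR-16 base first). The miR-15a and miR-15b products differed at 4 positions, and miR-497 differed from miR-15a at 5, with T1C the only one of these before the seed. By contrast miR-497 and miR-195, whose hairpins lie side by side, differed at 9 positions, and miR-15a and miR-16 at 6. In human sequence the members nearest to each other were therefore found in different pairs.

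Each of the 14 loci lay within 10 kb of another family member, and together they formed 3 bovine and 4 feline pairs. Over all loci of the species, 29.0% of the bovine and 33.3% of the feline precursors had any neighbour at that distance, so 6 of 6 and 8 of 8 members were above that background. The share for the family was not independent of the calling, because the hairpin classifier of miRWoods was given neighbouring hairpins as a feature. Pairs were taken among neighbours on 1 strand, so the shared strand of all 7 follows from that rule. Read along the transcribed strand, mir-15 came before mir-16 in 5 of 5 pairs and mir-497 before mir-195 in 2 of 2.

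The mir-15a pair holds the hairpins best known from chromosomal losses in human lymphoid leukaemia. In the cow, bta-mir-15a lay at chr12:19596355-19596417 on the minus strand and bta-mir-16a at chr12:19596209-19596275. A gap of 79 nt separated the bovine hairpins, and the pair spanned 209 nt. In the cat, fca-mir-15a lay at NC_018723.2:21601506-21601568 on the plus strand and fca-mir-16-1 at NC_018723.2:21601645-21601711. Here the gap was 76 nt and the span 206 nt, each 3 nt shorter than in the cow. In RefSeq genes of the bovine assembly ARS-UCD2.0, which is not known to be the build of the positions above, MIR15A and MIR16A sit inside LOC100847818, a transcribed pseudogene, with KCNRG and DLEU7 as neighbours.

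The mir-15b pair is the paralogous copy on another chromosome. The bovine hairpins were bta-mir-15b at chr1:107923396-107923458 and bta-mir-16b at chr1:107923246-107923313, both on the minus strand, with a gap of 82 nt and a span of 213 nt. The feline hairpins were fca-mir-15b at NC_018731.2:104877334-104877398 and fca-mir-16-2 at NC_018731.2:104877184-104877249, also on the minus strand, with a gap of 84 nt and a span of 215 nt. The gap thus differed by 2 nt, with the cat the longer. MIR15B and MIR16B lie inside SMC4 in the same gene table, a gene for a subunit of the condensin complex that compacts chromosomes, and the neighbours are TRIM59 and IFT80.

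The mir-497 and mir-195 hairpins stood much farther apart. Bovine bta-mir-497 lay at chr19:27441676-27441742 and bta-mir-195 at chr19:27441353-27441416 on the minus strand, with a gap of 259 nt in a span of 390 nt. Feline fca-mir-497 lay at NC_018736.2:2005287-2005349 and fca-mir-195 at NC_018736.2:2004971-2005031, again on the minus strand, with a gap of 255 nt in a span of 379 nt. The bovine gap was 4 nt longer. Taken between the first bases of the 5p products the bovine distance was 7 nt longer, and from hairpin start to hairpin start 8 nt. In the bovine gene table MIR497 and MIR195 lie inside LOC107131510, a long non-coding RNA gene between C19H17orf49 and BCL6B.

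**Figure D1:**
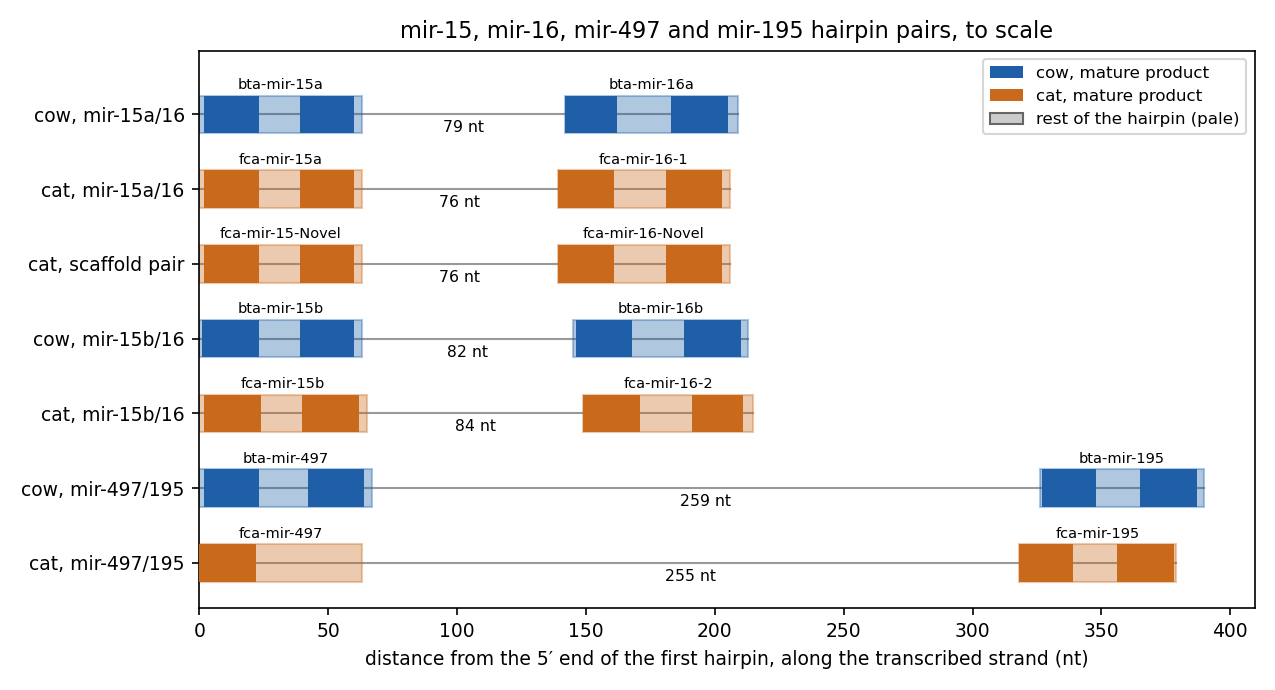
Hairpins of the 7 family pairs drawn to scale, with distance in nt from the 5′ end of the first hairpin along the transcribed strand (cow blue, cat orange, mature products dark, the rest of the hairpin pale). The mir-15 and mir-16 hairpins are 76 to 84 nt apart in both species, the mir-497 and mir-195 hairpins 255 and 259 nt, and the feline mir-497 hairpin has no 3p product.

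All 7 gaps were below the median of their species. Among 129 bovine neighbours on 1 strand and at most 10 kb apart the median gap was 475 nt (36 to 9782 nt). Only 9 of these gaps were shorter than that of the mir-15a pair, 11 were shorter than that of the mir-15b pair, and 40 were shorter than that of mir-497 and mir-195. Among 91 feline neighbours the median was 488 nt (38 to 9859 nt), and 6, 12 and 31 gaps were shorter than those of the mir-15a, mir-15b and mir-497 pairs in turn. The order of the 3 pairs by gap was the same in cow and cat.

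A feline pair had no counterpart by name in the bovine set. It consists of a mir-15 locus at NT_197829.1:456-518 and a mir-16 locus at NT_197829.1:313-379, both with a further suffix after the family number. They lay on the minus strand of a scaffold that carried no other predicted locus, and are called the scaffold loci here. Their gap was 76 nt and their span 206 nt, the same as for fca-mir-15a and fca-mir-16-1. The match extended to the hairpins. The scaffold mir-15 locus had the length and the product positions of fca-mir-15a, and the scaffold mir-16 locus had those of fca-mir-16-1, to the base. Of the 495 feline loci, 0 others had the geometry of either hairpin. The letters of the scaffold were not read, so a separate gene and a repeat of the same stretch in the assembly cannot be told apart. Counts of family loci, pairs and products given here include the scaffold loci, except where loci are matched to the cow. Only 10 feline loci lay on scaffolds (sequence names that begin with NT_), spread over 9 of them. The names of 4 of the 10 carried a family number with that suffix, and these 4 include the scaffold loci themselves. The share of such names over all feline loci was not computed.

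Both arms of the hairpin gave a product at 6 of 6 bovine and 7 of 8 feline family loci. The same held for 72.5% of all bovine and 65.7% of all feline loci. The exception was fca-mir-497, for which only a 5p product of 22 nt was listed, with 41 nt of hairpin after it. Its bovine counterpart gave 21 nt on the 5p arm and 22 nt on the 3p arm. The deposited sets give no read numbers, and read counts from the supplementary material were not used here. A 3p product that was rare and one that was absent therefore cannot be told apart from these sets.

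The products had nearly the same length throughout. Of 12 bovine products 1 was 20 nt long, 5 were 21 nt and 6 were 22 nt. Of 15 feline products 1 was 20 nt, 5 were 21 nt and 9 were 22 nt. All 27 thus fell between 20 and 22 nt. This window is the range of the family's own products, so it holds all of them by construction. It held 77.7% of all bovine and 77.4% of all feline products. The hairpins as called measured 63 to 68 nt in the cow (median 65.5) and 61 to 67 nt in the cat (median 64), close to the medians of 66 and 65 nt over all loci.

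Within the hairpin, the spacing between the called products differed from one family name to the next. Measured from start to start, as below, mir-195 and the mir-15b loci shared a distance of 38 nt. The 5 mir-15 loci had 16 nt from the end of the 5p product to the start of the 3p product in every case. Both mir-195 loci had 17 nt, and bta-mir-497 had 19 nt. The mir-16 loci had the widest spacing, with 20 nt at 4 loci and 21 nt at bta-mir-16a. The groups of mir-15 and mir-16 did not overlap, although their hairpins lie side by side and their human products share a seed. Over all loci with both arms the median spacing was 16 nt in either species (quartiles 14 and 18 nt), the value of mir-15. A spacing of 20 nt or more was found at 115 of 587 bovine loci, or 19.6%, and at 65 of 325 feline loci. The 5 mir-16 loci are paralogs and orthologs of each other and were not counted as independent cases.

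**Figure D2:**
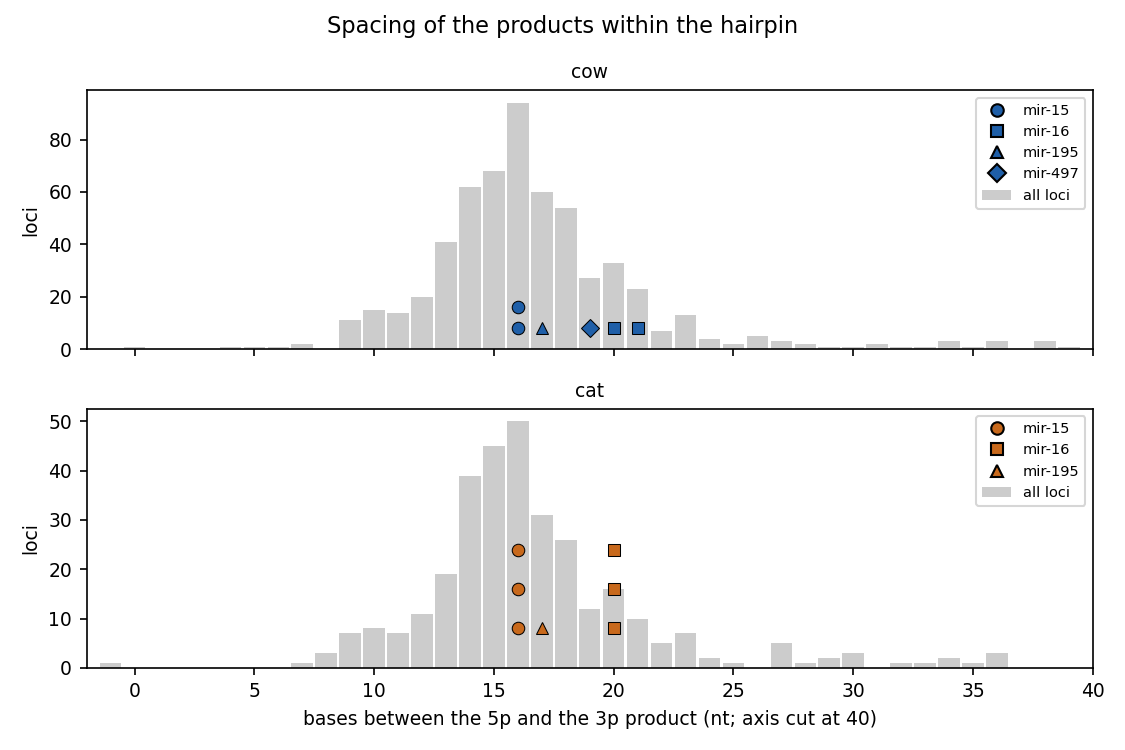
Number of loci (vertical axis) against the number of bases between the 5p and the 3p product (horizontal axis, in nt, ending at 40), for all loci with both arms (grey bars) and for family members (symbols, stacked only to keep them apart). The mir-15 loci sit on the commonest value of 16 nt, and the mir-16 loci lie at 20 or 21 nt.

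Measured from the first base of the 5p product to the first base of the 3p product, the distance was 37 or 38 nt for mir-15, 38 nt for mir-195, 40 nt for bta-mir-497 and 41 or 42 nt for mir-16. The 37 nt belonged to bta-mir-15a, fca-mir-15a and the scaffold mir-15 locus, whose 5p products were 21 nt long. The 38 nt belonged to bta-mir-15b and fca-mir-15b, whose 5p products were 22 nt long. The a and b copies of mir-15 thus differed by 1 nt in this distance in both species. Where in the hairpin that base lies was not determined, since the sequences were not read.

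**Figure D3:**
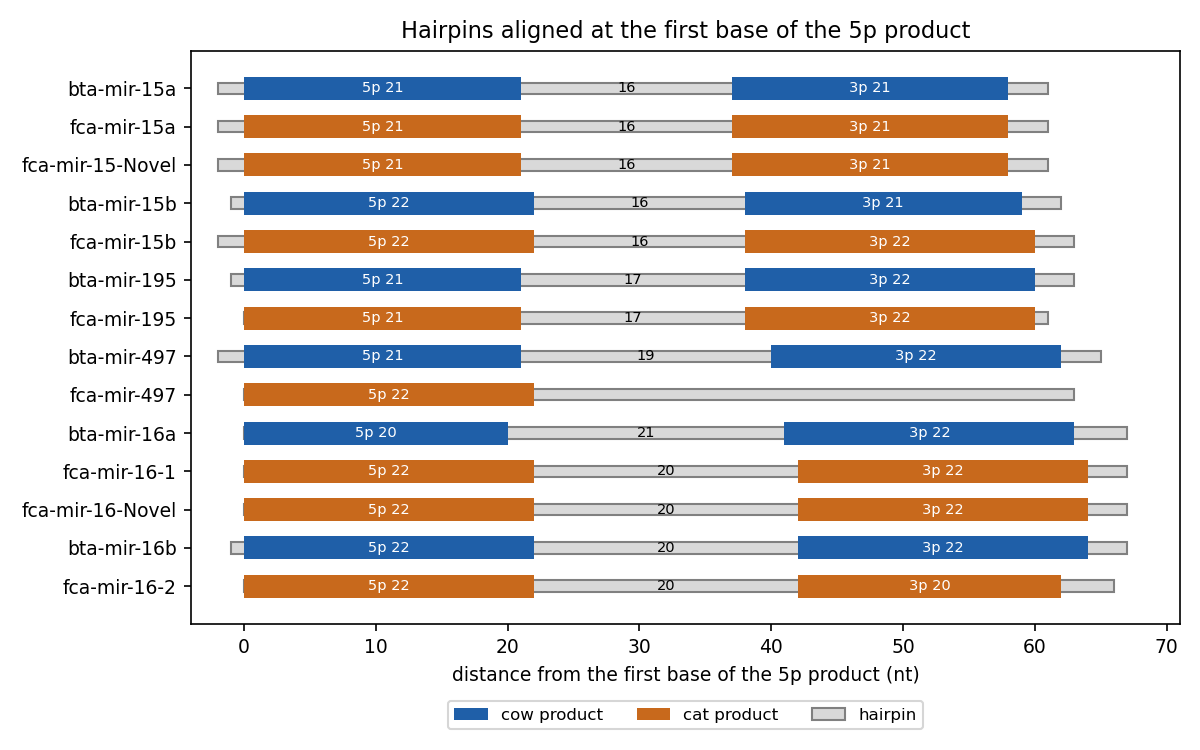
The 14 hairpins aligned at the first base of the 5p product, with distance in nt on the horizontal axis, cow products blue, cat products orange, and the remaining hairpin grey. Numbers in the products are their lengths and numbers between them the spacing, which is 16 nt for mir-15, 17 nt for mir-195, 19 nt for bta-mir-497 and 20 or 21 nt for mir-16.

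Matched by pair and name, 6 bovine loci had a feline counterpart. Hairpin lengths were equal at 2 of them, bta-mir-15a with 63 nt and bta-mir-16a with 67 nt. The bovine hairpin was longer at 3 (mir-16b by 2 nt, mir-195 by 3 nt and mir-497 by 4 nt) and the feline hairpin at 1 (mir-15b by 2 nt). Of 11 matched products 7 had equal lengths, 9 were within 1 nt and none differed by more than 2 nt. The spacing was equal at 4 of the 5 loci for which both arms were called in both species. Equal values were thus more frequent among products and spacings than among hairpin lengths, and with 6 loci this was not tested.

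The exception in spacing was bta-mir-16a. Its 5p product (chr12:19596256-19596275) was 20 nt long, while the 5p products of the other 4 mir-16 loci were 22 nt long. The distance to the 3p product was 41 nt from start to start, against 42 nt at each of the other 4. At the other bovine copy, bta-mir-16b, the 5p product was 22 nt and the distance 42 nt. The hairpin of bta-mir-16a begins at the first base of its 5p product. The gap of 79 nt to bta-mir-15a therefore rests on that called base. The reads behind the shorter product of bta-mir-16a were not analysed here. A 20 nt product was also listed on the 3p arm of fca-mir-16-2, against 22 nt at bta-mir-16b.

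To set the differences of 3, 2 and 4 nt beside other neighbours, gaps were compared for neighbouring hairpins with the same pair of family names in both species. Of 58 such name pairs 12 occurred more than once in a species, mir-15 with mir-16 among them, and were left out because the names alone do not say which copies match. The mir-15a and mir-15b pairs were matched by their letter instead. Besides mir-497 with mir-195 this left 45 pairs, with a median absolute difference of 26 nt (0 to 980 nt), and 10 of them differed by 4 nt or less. These 45 were matched by family number alone, so the copies compared may differ. An example is bta-mir-376d (89 nt from mir-654) set beside fca-mir-376c (451 nt). Long gaps leave more room for a difference. Of the 15 pairs with a gap of at most 300 nt in both species, a limit chosen after the values were seen, 5 differed by 4 nt or less and the median was 12 nt (0 to 26 nt). The gap differences of the 3 family pairs were below this median, and other pairs were as close. For mir-497 and mir-195 this rests on the hairpin ends, since the difference was 7 nt between the first bases of the 5p products and 8 nt start to start. Some of these pairs share a hairpin, so they are not separate cases.

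**Figure D4:**
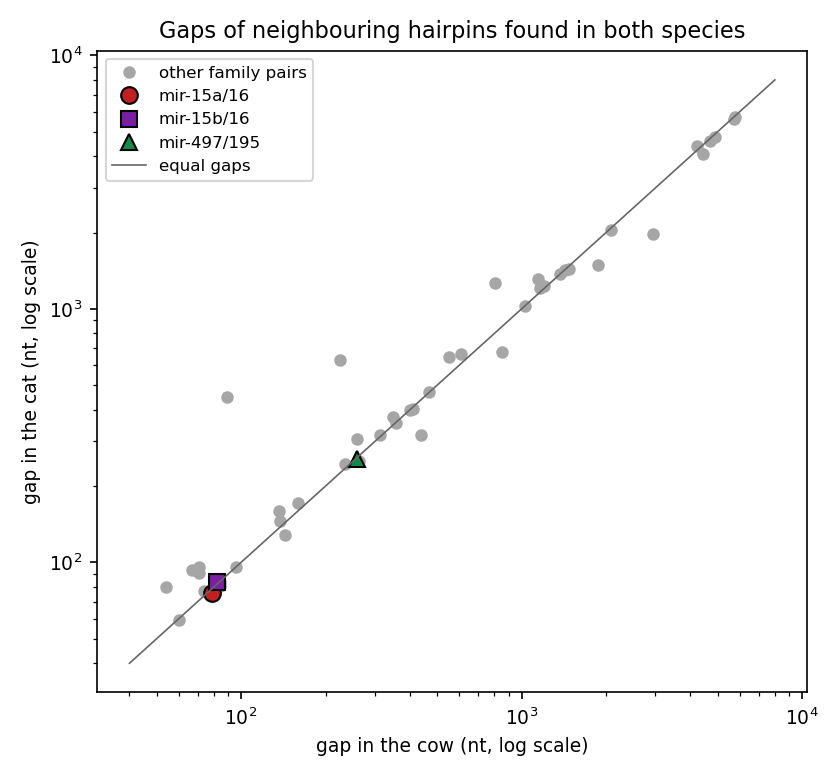
Gap between neighbouring hairpins of the same families in cow (horizontal) and cat (vertical), in nt on log axes, for 45 other pairs (grey) and the 3 family pairs (coloured), with the line of equal gaps. The family pairs lie on the line within 4 nt, at 79 and 76, 82 and 84, and 259 and 255 nt.

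Beyond the pairs, the nearest other loci were listed, with antisense names of the family left out. Distances to the nearest locus were not computed over all loci, so no background stands beside these values. The nearest other locus to bta-mir-16a was bta-mir-3613a, 53389 nt downstream, and no feline locus of that name was the neighbour of fca-mir-16-1, whose nearest other locus was fca-Novel108, 17662925 nt upstream of the pair. The nearest to the mir-15b pair were bta-Novel315, 550290 nt downstream, and fca-Novel33, 1519912 nt upstream. The mir-497 pair had a shared neighbour, with bta-mir-324 129586 nt upstream in the cow and a feline mir-324 locus 133473 nt upstream in the cat, both on the strand of the pair. On its other side lay bta-Novel68 at 261448 nt and fca-Novel88 at 250676 nt.

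On the strand opposite to fca-mir-195 the feline set held a locus named as its antisense, as-fca-mir-195, at NC_018736.2:2004969-2005036. Its 68 nt covered all 61 nt of fca-mir-195. It had a single 5p product of 23 nt, which lay opposite to the 3p product of fca-mir-195 over 22 nt and did not reach the 5p product. Such antisense names were given to 22 bovine and 5 feline loci, 0 and 1 of them at family members.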

How the data were processed

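Small RNA from 10 bovine and 4 feline libraries was sequenced. The authors trimmed the reads with cutadapt (1.15 per the submitters' processing notes), aligned them with Bowtie and ran miRWoods on the pooled libraries of each species. Reads with several genome matches were counted fractionally, and the hairpin classifier used neighbouring hairpins as a feature. Each deposited row gives the name, strand, start and end of a precursor or product, with positions counted from 1. The score field was blank in all rows, and these sets hold no read numbers. Read counts in the supplementary material were not used, so depth per locus was not analysed here. The build of these positions was not given in the sources used here.

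Members were found by name. For the share of loci with a neighbour, spans lay at most 10 kb apart on either strand. For pairs and gaps, a neighbour was the next locus on the same strand within that distance. Overlapping spans were left out of the gaps over all loci. Lengths, gaps and product positions were computed along the transcribed strand and compared between species for loci matched by pair and name, with Python 3.11.15 and numpy 2.4.6, after the same code had been tested on simulated data. Figures were drawn with matplotlib 3.10.9. No statistical test was run. The members, the lists and the loci named were chosen with earlier results of these data known. The rule for names takes every member, the nearest other locus on each side of a pair, antisense loci at members, the further families mir-424, mir-503, mir-322 and mir-6353, and genes looked up for the neighbourhood. Other loci were chosen after their values were seen. All 6 bovine names matched a gene of the ARS-UCD2.0 table, from which no position is given.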

Additional observations from a re-analysis of the deposited data

How the results depend on the processing

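Over 45 alternatives in how members, neighbours and distances were taken, 41 left the value as it was or within the limits set for a change, 4 moved it and 0 reversed a direction. The 41 include values that changed. Within 1 kb, 175 bovine loci had a neighbour, in place of 235 within 10 kb. Between facing products the bovine minus feline difference of the mir-15b pair was -1 nt in place of -2. The 3 bovine and 4 feline pairs stayed the same in number at distances of 1, 5 and 50 kb and with distances taken from start to start. They were already taken on 1 strand, so the setting of 1 strand only could not change them. Over all loci that setting left 187 bovine loci with a neighbour in place of 235, and 137 feline loci in place of 165. Counting the antisense locus gave 9 feline members, and leaving out the scaffold loci gave 6. Start to start, the bovine minus feline difference was -4 nt in place of -2 for the mir-15b pair and 8 nt in place of 4 for mir-497 and mir-195. Between the first bases of the 5p products it was 7 nt for mir-497 and mir-195, a measure chosen after seeing the data. The share of matched lengths that were equal was 33.3% for hairpins and 63.6% for products. The gap between facing products of mir-497 and mir-195 cannot be compared, since fca-mir-497 has no 3p product. Leaving out single libraries was not run, because each call set pools its libraries. No paired analysis was possible because the values come from no test and the columns carry no replicate. The depth behind a product or an absent arm was not analysed here.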

Other observations

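Another pair with a related seed, mir-424 and mir-503, was called on the X chromosome of the cow and on NC_018741.2 in the cat. The mir-424 hairpin came first, and the gap was 264 nt in the cow and 252 nt in the cat, near that of mir-497 and mir-195. The spacing between the arms was 16 nt at both mir-424 loci, as at mir-15, and 17 and 21 nt at the bovine and feline mir-503 loci. The mir-503 hairpins measured 103 and 97 nt, longer than any of the 14 family hairpins. No locus was named mir-322 or mir-6353 in either species.

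Of the 14 members, 10 shared their exact hairpin length and product positions with no locus outside the family in their species, and 4 did with 1 or 2 others. The same share was not computed over all loci, so these counts do not set the family apart. The length and product positions of bta-mir-15b were also those of bta-mir-99b, and those of bta-mir-16b were also those of bta-mir-134. Those of fca-mir-15b were shared with fca-mir-181a-2 and fca-mir-30b, and those of fca-mir-497 with fca-mir-186 and fca-mir-383.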
